A study of Mus musculus with 8 samples.

Results

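Trib3 and 9 other genes of the ATF4 stress response (Asns, Ddit3, Atf3, Atf4, Atf5, Chac1, Sesn2, Psat1 and Nupr1) were followed in mouse liver RNA, to ask whether the lower level of Trib3 is shared by other genes that ATF4 controls. They were taken by gene symbol, and each symbol was found once among the 24674 named gene lines of the deposited table. They were chosen by the fold change and normalized reads of Trib3 in this same contrast, known from earlier work on the same libraries, so the difference between the groups is given for these 10 genes as a description, with no p-value for any of them. How many of them the main fit over all genes called is given beside the share it called of all tested genes. Counts from alternative fits are given as well, also as a description. All 10 were among the 14390 genes that passed the filter on low values, a minimum of 10 normalized reads in 4 or more of the 8 libraries. The F2_outcross group held 4 female mice that were wild type in genotype and had a maternal grandmother without Khdc3, whose protein acts in the egg and the first embryonic cells. The WT group held 4 wild-type females whose ancestors were all wild type. Both groups therefore carry intact Khdc3, and the sources used here give no age, litter, feeding state or hour of collection. The values are normalized reads, that is, reads divided by the authors' factor for the size of each library, and fold changes are differences of log2(normalized reads + 1), F2_outcross minus WT, which understate the change of low genes.

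ATF4 is the transcription factor of the integrated stress response. Kinases that sense amino acid shortage, unfolded protein in the endoplasmic reticulum, heme shortage or double-stranded RNA phosphorylate the initiation factor eIF2, which lowers protein synthesis in general and raises translation of the Atf4 mRNA. ATF4 then pairs with C/EBP proteins and other bZIP factors and switches on genes of amino acid synthesis and transport, tRNA charging and redox balance, as well as genes that end the response or lead to cell death. TRIB3, a pseudokinase of the tribbles family, is one of its targets, binds AKT and ATF4, and has been linked to insulin signalling in the liver. Because ATF4 is set largely by translation, the level of its mRNA is not a measure of its protein.

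The promoters of the genes are shown because ATF4 acts through a short composite element, the C/EBP-ATF element, written here as TGATGNAA. RefSeq promoter windows (build GRCm38.p6, 250 bases before to 50 bases after the annotated start) were searched on both strands. The 10 genes had 12 windows, since Atf5 and Psat1 had 2 each, and 5 of the 10 genes held a match. In all, 3.97% of the RefSeq windows (1304 of 32851) and 4.51% of the genes with a window (1219 of 27025) held one. The Trib3 window, at chr2:152344011-152344310 on the minus strand, is given whole, 5′ to 3′ along the gene, with its match in capitals. The match reads TGATGTAA on the opposite strand and lies 15 bases after the RefSeq start.
Trib3: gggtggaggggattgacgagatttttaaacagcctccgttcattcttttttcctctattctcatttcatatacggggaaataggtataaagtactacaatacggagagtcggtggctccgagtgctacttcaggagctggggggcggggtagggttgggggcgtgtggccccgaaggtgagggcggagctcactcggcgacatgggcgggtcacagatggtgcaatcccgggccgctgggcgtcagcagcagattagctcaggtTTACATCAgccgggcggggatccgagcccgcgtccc
The other 4 matches are given in windows of 40 bases, also 5′ to 3′ along each gene with the match in capitals. They are at chr1:191183420-191183459 (Atf3, minus strand), chr7:126625557-126625596 (Nupr1, minus strand), chr6:7693209-7693248 (Asns, minus strand) and chr2:119351033-119351072 (Chac1, plus strand).
Atf3: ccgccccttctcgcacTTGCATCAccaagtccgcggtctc
Nupr1: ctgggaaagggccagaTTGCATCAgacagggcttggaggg
Asns: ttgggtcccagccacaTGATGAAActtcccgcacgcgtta
Chac1: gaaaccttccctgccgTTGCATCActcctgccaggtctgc
The match read TGATGCAA in Atf3, Nupr1 and Chac1, at 110, 110 and 193 bases before the RefSeq start. In Asns it read TGATGAAA, 23 bases before the RefSeq start. All distances here are from the RefSeq start of the window, which can differ from the GENCODE gene positions given below. By the GENCODE positions, the matches of Atf3, Nupr1 and Asns lie inside the gene, and those of Trib3 and Chac1 before it. Atf4, Atf5, Ddit3, Sesn2 and Psat1 had no match in their windows, which says only that these letters are not there. None of the 12 windows held the cyclic AMP response element TGACGTCA (1.79% of all windows) or the ER stress element (0.119%), and the E-box CACGTG (7.15%) was in that of Nupr1, 225 bases before the start. A match is a description of the sequence and not evidence of binding.

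Trib3 (chromosome 2, 152337422 to 152344032, minus strand; GRCm38, GENCODE M21, as for all gene positions here) was lower in F2_outcross livers, where its mean was 43.8% of the WT mean. It had 74.6, 89.2, 47.7 and 126 normalized reads in F2_outcross replicates 1 to 4, against 174, 215, 185 and 195 in WT replicates 1 to 4. Every F2_outcross library lay below every WT library, and the F2_outcross libraries were the more spread, with a coefficient of variation of 38.6% against 9.05% in WT. The mean was 84.3 ± 32.5 normalized reads in F2_outcross and 192 ± 17.4 in WT (SD, n = 4 each), and the log2 fold change was -1.26 ± 0.24 (moderated SE; 95% interval -1.79 to -0.73, not adjusted for the number of genes), or 2.39-fold lower. By reads, between 55 and 250 stood behind each value.

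**Figure D1:**
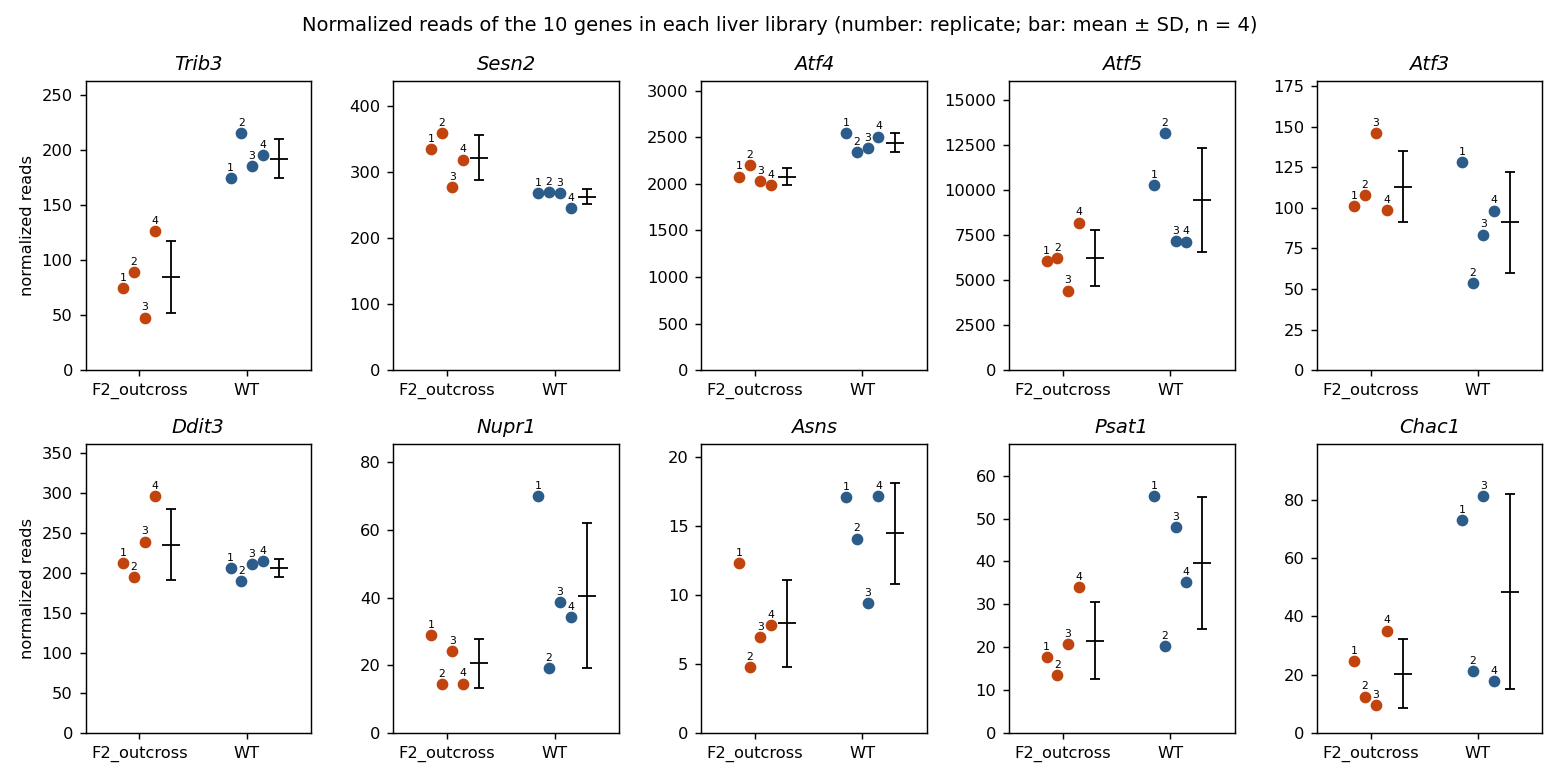
Normalized reads of the 10 genes in each library, 1 panel per gene, with F2_outcross on the left and WT on the right of each panel; points are the 4 libraries of a group and the bars mark the mean and SD. Trib3 and Atf4 are lower in all 4 F2_outcross libraries, Sesn2 is higher in all 4, and the groups of the other 7 genes overlap.

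The factors of the response differed in the direction and size of their difference. Atf4 itself (chromosome 15, 80255184 to 80257541) had 2079, 2204, 2033 and 1988 normalized reads in the F2_outcross libraries, against 2544, 2338, 2384 and 2507 in the WT libraries. The groups did not overlap, but the difference was small, with a mean of 2076 ± 92.7 in F2_outcross and 2443 ± 97.9 in WT (SD, n = 4 each) and a log2 fold change of -0.23 ± 0.09 (95% interval -0.42 to -0.05). Atf5 (chromosome 7, 44812256 to 44816658), a related factor that is also translated selectively when eIF2 is phosphorylated, had 6035, 6222, 4419 and 8193 normalized reads in F2_outcross, against 10274, 13156, 7179 and 7133 in WT. In 3 of the 4 F2_outcross libraries Atf5 was below the lowest WT library, while F2_outcross replicate 4 was above WT replicates 3 and 4. Its log2 fold change was -0.59 ± 0.22 (95% interval -1.06 to -0.12). The 82 exonic bases that Atf5 shares with Nup62 and with Il4i1 on the opposite strand could be counted for either gene if strand was not used in counting, and the sources used here do not give the strand setting.

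Atf3, Ddit3 and Nupr1 are stress-induced genes of the same pathway. Atf3 (chromosome 1, 191170296 to 191218039), a repressor and activator of the ATF family, had 101, 108, 146 and 98.4 normalized reads in F2_outcross, against 128, 53.6, 83.5 and 98.3 in WT. Ddit3 (chromosome 10, 127290774 to 127296288), which encodes CHOP, a factor of stress-induced cell death, had 212, 195, 239 and 296 in F2_outcross, against 206, 190 and 211 in WT replicates 1 to 3 and 215 in WT replicate 4. For both genes the means were higher in F2_outcross and the groups overlapped, with log2 fold changes of 0.36 ± 0.25 for Atf3 (95% interval -0.17 to 0.9) and 0.18 ± 0.14 for Ddit3 (-0.14 to 0.49). Ddit3 shares 68 exonic bases with Mars1 and 13 with Gm4189 on the opposite strand. GENCODE M21 also holds a 2nd protein-coding gene of the same name on the same strand, with 105 shared exonic bases. Nupr1 (chromosome 7, 126623249 to 126630861), a small chromatin-associated stress protein, had 29.0, 14.4, 24.3 and 14.6 normalized reads in F2_outcross, against 70.1, 19.2, 38.6 and 34.3 in WT. Nupr1 was below the lowest WT library in 2 of the 4 F2_outcross libraries, with a log2 fold change of -0.87 ± 0.38 (95% interval -1.69 to -0.04).

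The enzymes rested on few reads, and their values were spread within each group. Asns (chromosome 6, 7675169 to 7693254), which makes asparagine, had 12.3, 4.79, 6.94 and 7.8 normalized reads in F2_outcross, against 17.1, 14.1, 9.4 and 17.2 in WT. Asns rested on 5 to 22 reads per library and reached 10 normalized reads in 1 F2_outcross library and 3 WT libraries, so it passed the filter mainly through the group in which it was higher. Psat1 (chromosome 19, 15904678 to 15947337), an aminotransferase of serine synthesis, had 17.6, 13.4, 20.8 and 34.1 in F2_outcross, against 55.3, 20.2, 48.0 and 35.1 in WT. Chac1 (chromosome 2, 119351229 to 119354381), which breaks down glutathione, had 24.6, 12.5, 9.54 and 35.1 in F2_outcross, against 73.2, 21.2, 81.4 and 17.9 in WT. All 3 had lower means in F2_outcross and groups that overlapped. The log2 fold changes were -0.82 ± 0.38 for Asns (95% interval -1.64 to 0.01), -0.84 ± 0.36 for Psat1 (-1.62 to -0.06) and -1.07 ± 0.53 for Chac1 (-2.23 to 0.08).

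Sesn2, the other regulator of signalling beside Trib3, was higher in F2_outcross. Sesn2 (chromosome 4, 132492032 to 132510501) encodes sestrin 2, a leucine sensor that restrains the growth kinase complex TORC1. It had 335, 359, 277 and 319 normalized reads in F2_outcross, against 268, 269.8, 268 and 245 in WT. Each F2_outcross library was above each WT library, with a mean of 322 ± 34.6 in F2_outcross and 263 ± 11.9 in WT (SD, n = 4 each) and a log2 fold change of 0.29 ± 0.12 (95% interval 0.03 to 0.55).

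**Figure D2:**
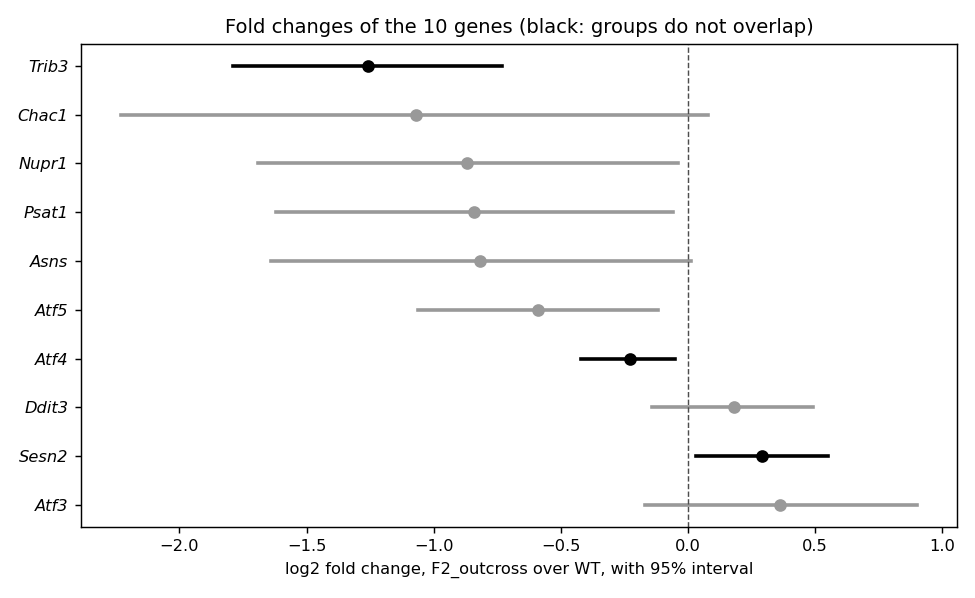
Log2 fold change of the 10 genes, F2_outcross minus WT, on log2(normalized reads + 1); points are the estimates and bars the 95% moderated intervals from 4 libraries per group, not adjusted for the number of genes. Values run from -1.26 for Trib3 to 0.36 for Atf3, and the intervals of Asns, Chac1, Atf3 and Ddit3 include 0.

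Across the 10 genes, 7 had a negative log2 fold change and 3 a positive one, with a median of -0.7, beside 51.1% of all 14390 tested genes with a negative one and a median of -0.01. Without Trib3, 6 of 9 were negative and the median was -0.59, and the interval excluded 0 below for Atf4, Atf5, Nupr1 and Psat1 and above for Sesn2. These intervals are not adjusted for the number of genes and are given as a description, not as a test of single genes. Adjusted over all tested genes (limma, Benjamini-Hochberg, adjusted p under 0.05), 1 of the 10, Trib3, was called lower, where 1.06% of all tested genes were called lower and 2.66% were called in either direction. None of the 10 was called higher by limma, where 1.6% of all tested genes were. At an unadjusted p under 0.05 the count was 1 higher and 5 lower, where 10% of all tested genes were higher and 11% lower at that level. With limma voom on the recovered reads 1 was again lower and 0 were higher. The groups did not overlap, with F2_outcross lower, for 2 of the 10 genes and for 5.45% of all tested genes, and with F2_outcross higher for 1 of the 10 and for 6.5% of all. The genes were chosen with this contrast known, so nothing is read from these counts. The call of Trib3 was lost when F2_outcross replicate 1 or 2 or WT replicate 1, 3 or 4 was left out. In those fits the number of genes called among all tested genes also fell, from 383 to between 111 and 142. The log2 fold change of Trib3 stayed between -1.48 and -1.02 in the 8 fits that left out 1 library each.

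The libraries of a group did not rank the genes alike. F2_outcross replicate 4 was the highest of its group for Trib3, Atf5, Ddit3, Psat1 and Chac1, and F2_outcross replicate 3 was the lowest for Trib3, Atf5, Sesn2 and Chac1 and the highest for Atf3. Trib3 and Atf5 had the same order in the F2_outcross libraries, with replicate 3 lowest, then replicates 1, 2 and 4. In WT, replicate 2 was the highest library for Trib3, Atf5 and, by a small margin, Sesn2, and the lowest for Nupr1, Psat1, Atf3, Ddit3 and Atf4. Per kilobase of exon, the mean level in normalized reads was 3119.6 ± 776 in F2_outcross and 4734 ± 1447 in WT for Atf5, the most abundant of the 10, and for Atf4 it was 880.4 ± 39.3 in F2_outcross and 1036 ± 41.5 in WT (SD, n = 4 each). Below them in WT came Ddit3 (120.0 ± 6.46), Trib3 (90.5 ± 8.19), Sesn2 (75.6 ± 3.42), Atf3 (42.2 ± 14.5), Chac1 (29.6 ± 20.5), Nupr1 (16.1 ± 8.5), Psat1 (9.32 ± 3.62) and Asns (5.29 ± 1.34). Of these WT neighbours, Atf3 and Chac1, Chac1 and Nupr1, and Nupr1 and Psat1 had means that differed by less than the larger of their SDs. In F2_outcross Trib3 stood at 39.7 ± 15.3 per kilobase, behind Sesn2 (92.8 ± 9.96) and Atf3 (52.6 ± 10.2), the second of which differed from Trib3 by less than the larger SD, and the remaining order was the one seen in WT.

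The genes whose profile over the 8 libraries was most like that of Trib3 came from outside the 10. Likeness was the root mean square difference of the log2 values after each gene's mean was removed, over 8 libraries and 12822 genes whose names do not mark predicted models, and because Trib3 separates the groups, genes that separate them are favoured and get no test. The 5 nearest were Fbxo21 (0.203), a ubiquitin ligase subunit, Nr1d1 (0.248), the clock repressor REV-ERB alpha, Meiob (0.271), a meiotic DNA-binding protein, Crot (0.286), a peroxisomal carnitine acyltransferase, and Pparg (0.29), a nuclear receptor of fat storage. Fbxo21 had 984, 919.6, 589 and 1446 normalized reads in F2_outcross, against 1930.4, 1943, 2021 and 1620.3 in WT. Nr1d1 had 1659, 1362, 1068 and 2414 in F2_outcross, against 3125, 5310.0, 3789 and 2872 in WT. In all 5 genes, as in Trib3, F2_outcross replicate 3 was the lowest library and F2_outcross replicate 4 the highest of its group. The choice by likeness to Trib3 favours such a shared order, so it is no separate result. Only 9 of the 12822 genes were others of the 10 chosen genes, while tested genes of the wider set of ATF4 targets below were ranked too. Among these 9 chosen genes the nearest was Atf5, in place 71 with 0.433, then Asns in place 725, Psat1 in place 1619 and Atf4 in place 1712, and Atf3 was the farthest in place 12042.

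**Figure D3:**
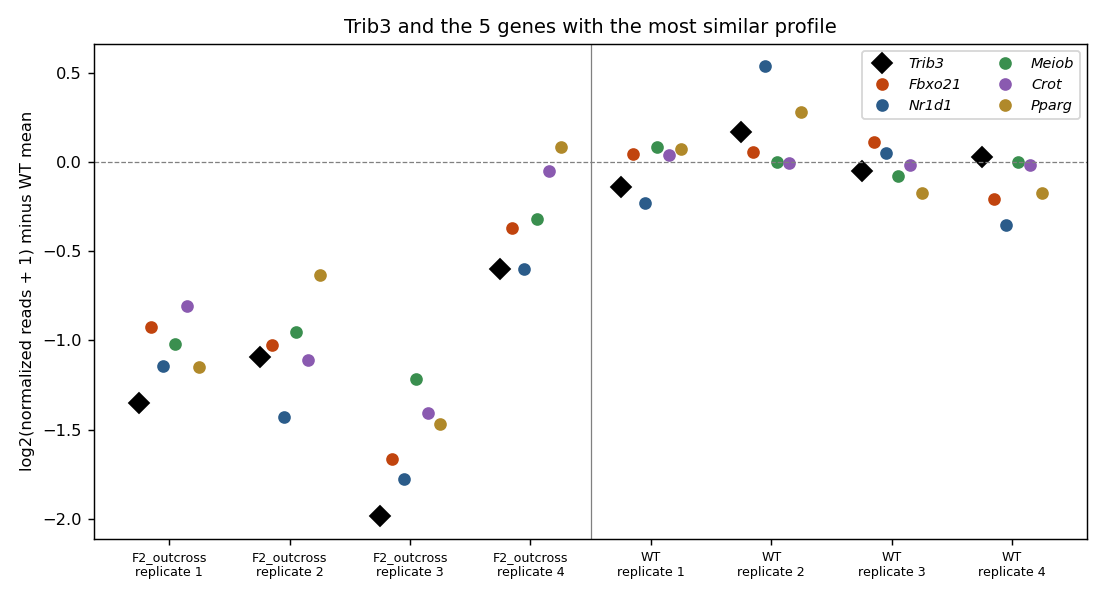
Trib3 (diamonds) and the 5 genes with the most similar profile (circles), as log2(normalized reads + 1) minus the gene's WT mean, in the 4 F2_outcross libraries (left) and the 4 WT libraries (right). All lie lowest in F2_outcross replicate 3 and highest of their group in F2_outcross replicate 4, where Crot lies just below and Pparg within the WT range. The choice by likeness favours this shared order.

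A wider set of ATF4 targets held 55 genes of the table in 5 lists, of which 49 were tested. It had 3 genes higher and 1 lower (limma, adjusted p under 0.05), 26 negative log2 fold changes and a median of -0.03, beside 230 higher and 153 lower of the 14390 tested genes and a median of -0.01. With limma voom the counts were 2 higher and 1 lower. At a limma unadjusted p under 0.05, 7 of the 49 were higher and 9 lower, beside 10% and 11% of all tested genes. The gene called lower at the adjusted threshold encodes a tRNA synthetase, one of the enzymes that charge tRNAs with amino acids. Cars, which charges the tRNA of cysteine, averaged 689 ± 43.5 normalized reads in F2_outcross and 1013 ± 81.2 in WT (SD, n = 4 each; log2 fold change -0.55 ± 0.10, limma adjusted p = 0.018). Of the 13 genes of tRNA charging, which are synthetases and the tRNA exporter Xpot, 11 had a negative log2 fold change, as did 51.1% of all tested genes. The list had a median of -0.18, with values from -0.55 to 0.24. At a limma unadjusted p under 0.05, 1 of the 13 was higher and 4 lower. At the adjusted threshold 12 did not pass, among them Mars1 (-0.34 ± 0.12, limma adjusted p = 0.137) and Sars (-0.32 ± 0.12, limma adjusted p = 0.154). The call of Cars was lost without F2_outcross replicate 2 or WT replicate 1, with an adjusted p of up to 0.054 in limma.

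In the list of proline and cysteine synthesis and transamination, 2 of 6 rose, where 1.6% of all tested genes did. At a limma unadjusted p under 0.05, 3 of the 6 were higher and 2 lower. Got1, the cytosolic aspartate aminotransferase, averaged 13866 ± 1469 normalized reads in F2_outcross and 7624 ± 1041 in WT (SD, n = 4 each; log2 fold change 0.87 ± 0.13, limma adjusted p = 0.00548). Gpt2, a mitochondrial alanine aminotransferase, had a log2 fold change of 0.59 ± 0.13 (limma adjusted p = 0.0342), a call lost in 6 of the 8 fits without 1 library and with no filter on low values. The proline enzyme Aldh18a1 averaged 36.9 ± 11.5 in F2_outcross and 72.9 ± 14.9 in WT and did not pass (log2 fold change -0.98 ± 0.25, limma adjusted p = 0.059). Of the 5 tested genes of serine, glycine and folate metabolism, 0 passed in limma or in limma voom, and 1 higher and 1 lower had an unadjusted p under 0.05. Mthfd2, the mitochondrial folate enzyme, averaged 21.5 ± 6.36 in F2_outcross and 49.4 ± 21.2 in WT (log2 fold change -1.11 ± 0.33, limma adjusted p = 0.0922). Of the 9 tested amino acid transporters 0 passed in limma, in limma voom or at an unadjusted p under 0.05, and the median was -0.02. Of the 16 other tested targets, 1 rose, the transcription factor Nfe2l1 (log2 fold change 0.49 ± 0.11, limma adjusted p = 0.0434), whose call was lost in 6 of the 8 fits without 1 library, with voom and with no filter on low values. At a limma unadjusted p under 0.05, 2 of the 16 were higher and 2 lower. Vldlr, a lipoprotein receptor, had a log2 fold change of -1.02 ± 0.40 and did not pass (limma adjusted p = 0.173).

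**Figure D4:**
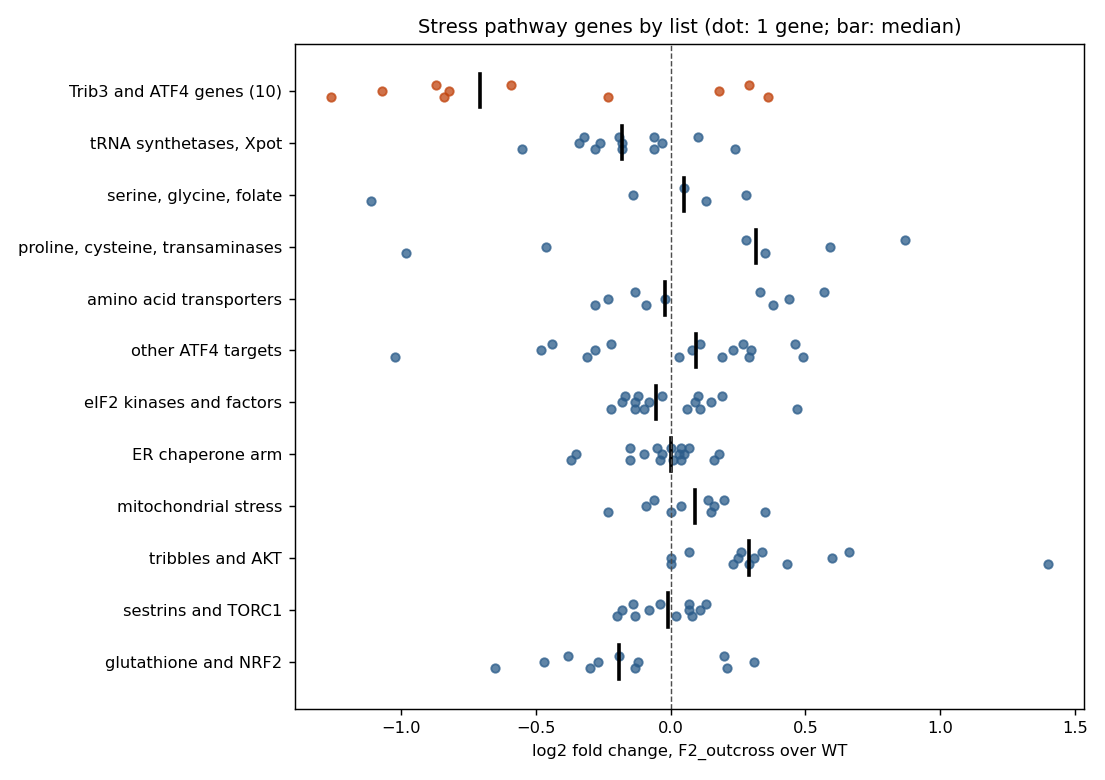
Log2 fold change, F2_outcross minus WT, of the tested genes of each list; each point is 1 gene, the 10 genes of the report are in orange, and the bar marks the median of the list. The 10 genes have a median of -0.7, the tRNA synthetases with Xpot of -0.18 and the amino acid transporters of -0.02.

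In the 4 lists of eIF2, the endoplasmic reticulum, mitochondrial stress and TORC1, 1 gene passed, where 2.66% of all tested genes did. Of the 16 eIF2 kinases, subunits and phosphatase genes, 1 rose, Ppp1r15b, a subunit that directs dephosphorylation of eIF2, at 4741 ± 482 normalized reads in F2_outcross and 3420.5 ± 343 in WT (SD, n = 4 each; limma adjusted p = 0.0436). That call was lost in 6 of the 8 fits without 1 library, with voom and with no filter on low values. Of 17 chaperone and folding genes of the endoplasmic reticulum, 0 passed in limma or limma voom, 1 lower had an unadjusted p under 0.05, and the median was 0.0. Of 10 mitochondrial stress genes, 0 passed in limma or limma voom, 1 higher had an unadjusted p under 0.05, and the median was 0.09. Of 12 genes of the sestrins and TORC1, 0 passed in limma, in limma voom or at an unadjusted p under 0.05, and the median was -0.01.

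The list of tribbles and AKT signalling held 13 tested genes, of which 2 rose and 0 fell in limma and in limma voom. In limma, 1.6% of all tested genes rose and 1.06% fell. In the list, 7 higher and 0 lower had an unadjusted p under 0.05, as did 10% (higher) and 11% (lower) of all tested genes. Acacb, an acetyl-CoA carboxylase, averaged 3770.0 ± 1167 normalized reads in F2_outcross and 1400.5 ± 226 in WT (SD, n = 4 each; log2 fold change 1.40 ± 0.18, limma adjusted p = 0.00285). Pik3r1, the regulatory subunit of phosphoinositide 3-kinase, averaged 3471 ± 206 in F2_outcross and 2199 ± 61.2 in WT (log2 fold change 0.66 ± 0.09, limma adjusted p = 0.00333). Neither call was lost in any fit without 1 library. The other tribbles genes did not pass. Trib1 averaged 1531 normalized reads in F2_outcross and 1213 in WT, and Trib2 66.7 in F2_outcross and 67.2 in WT.

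Of 11 genes of glutathione and NRF2, 2 fell and 9 did not pass in limma, where 1.06% of all tested genes fell, and 1 fell in limma voom. Gclc, the rate-limiting subunit of glutathione synthesis, averaged 5423 ± 573 normalized reads in F2_outcross and 7484 ± 215 in WT (SD, n = 4 each; limma adjusted p = 0.0334). Ggct, which acts on gamma-glutamyl dipeptides, averaged 142 ± 14.3 in F2_outcross and 226 ± 38.4 in WT (limma adjusted p = 0.0481). The call of Gclc was lost in 6 and that of Ggct in 7 of the 8 fits without 1 library. That of Gclc was also lost with no filter on low values, and that of Ggct with no filter, library weights, TMM, quantile normalization and voom. Nr1d1, one of the genes nearest to Trib3 above, was the 1 of 12 tested clock genes that fell (1626 ± 578 in F2_outcross and 3774 ± 1094 in WT, limma adjusted p = 0.0209), while Cry1, Ciart and Per2 rose. Of all tested genes, 1.06% fell and 1.6% rose. In the 8 fits without 1 library the call was lost in 3 for Nr1d1, in 4 for Ciart, in 5 for Per2 and in 0 for Cry1, and that of Per2 was also lost with robust moderation.

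The labels name hepatocytes as the cell type, and the summed hepatocyte markers stood at 3294253 to 4116658 normalized reads in F2_outcross and 3180139 to 4508136 in WT. Markers of other liver cells were detected too, and in bulk RNA fewer cells of a type and less RNA per cell cannot be told apart. Markers of immune cells were lower in F2_outcross: all 5 tested neutrophil, all 6 B cell, all 5 tested T and NK cell and all 8 Kupffer cell markers had a negative log2 fold change, as did 51.1% of all tested genes. In that order, 1, 2, 1 and 0 of them passed in limma (0, 2, 1 and 0 in limma voom), where 1.06% of all tested genes were called lower. These calls were S100a8, Ighm, Ighd and Nkg7, and each was lost in 6 of the 8 fits without 1 library. All 8 Kupffer cell markers were lower at an unadjusted p under 0.05, as were 11% of all tested genes. No marker of any list was at 0 in every library. Some tested markers, among them Retnlg, Klrb1c and the erythroid marker Hba-a2, passed the filter on low values mainly through WT. The filter thus favoured their negative sign. Summed B cell markers ran from 145 to 328 in F2_outcross and from 353 to 782 in WT, and T and NK cell markers from 96.9 to 116 in F2_outcross and from 115 to 368 in WT. Neutrophil markers ran from 112 to 185 in F2_outcross and from 192 to 643 in WT, and Kupffer cell markers from 14025 to 20197 in F2_outcross and from 17126 to 37049 in WT. Immune marker sums were thus lower in most or all F2_outcross libraries than in any WT library. In WT, B cell markers and T and NK cell markers gave the same order of libraries (replicate 1, then 3, 4 and 2). Nupr1 and Psat1 had that order too, and Trib3 the reverse. The first principal component also set the WT libraries in that order, at 40.14, 23.86, 23.19 and -1.98. The share of all tested genes with this order, or its reverse, was not counted. Kupffer cell markers gave another WT order, with 25731 in replicate 4 and 25347 in replicate 3. WT replicate 2, the WT library with the fewest B cell markers and T and NK cell markers, had the most Trib3. In F2_outcross, replicate 4 had the most B cell markers (328) and the most Trib3 (126). Replicate 3 had the fewest B cell markers (145) and the least Trib3 (47.7). The F2_outcross order by T and NK cell markers (replicate 1, then 3, 4 and 2) was that of Nupr1 but not of Psat1. The F2_outcross order by B cell markers (replicate 4, then 1, 2 and 3) was that of neither gene. These orders of 4 libraries per group are given as a description only. The summed markers of 2 other cell types were higher in every F2_outcross library than in any WT library. Those of cholangiocytes were at 404 to 599 in F2_outcross and 245 to 338 in WT. Of their 4 tested genes, 1 was called higher (Spp1, lost in 3 of the 8 fits without 1 library). Spp1, the largest part of this sum, averaged 332 in F2_outcross and 158 in WT. The groups of the other tested cholangiocyte markers overlapped. Summed adipocyte markers were at 35.5 to 226 in F2_outcross and 10.1 to 30.3 in WT. Of these 5 genes, 1 was tested, Cidec, and 0 were called in limma or limma voom (1 higher at an unadjusted p under 0.05). Cidec made up nearly all of the adipocyte sum in F2_outcross replicates 2 and 4, but not in replicates 1 and 3. Whether either cell type itself was higher was not tested. Erythroid markers summed to 6450.2 to 17001 in F2_outcross and 9871 to 24292 in WT, all 5 tested had a negative log2 fold change with a median of -0.9, and 0 passed in limma or limma voom (3 lower at an unadjusted p under 0.05). The part of these cell types in the results for Nupr1, Psat1 and the other genes was not tested.

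As for the libraries, 27855142 to 35602558 reads per library fell on named genes, and 1 read was worth 0.7787 to 1.0441 normalized reads. In all, 383 of the 14390 tested genes changed, 230 higher and 153 lower (198 higher and 208 lower with upper quartile scaling). The first principal component held 32.8% of the variance and set the 4 F2_outcross libraries below the 4 WT libraries, with WT replicate 2 nearest to them. Leaving out WT replicate 2 gave 1073 changed genes, and leaving out F2_outcross replicate 1 or 2 or WT replicate 1, 3 or 4 gave 142, 111, 131, 120 and 131 in that order. The labels do not say whether the animals came from separate litters, so p-values here cover only the variation among these 8 animals.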

How the data were processed

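Liver RNA of 8 female mice, 4 per group, was made into strand-specific libraries, per the labels' protocols. Cutadapt, HISAT2, DESeq2 and build GRCm38 are listed, without versions or roles, per the submitters' processing notes. The sources used here do not give the read counter, annotation or strand setting. The deposited table holds log2 values that the authors computed from normalized reads plus 0.1, per the values (lowest -3.32). They were returned to normalized reads, and in each library 100% of the values checked lay within 0.1 of a whole number of reads. The check left out abundant genes, among them Atf4 and Atf5. Of 25069 lines, 395 had no symbol (0.611% to 1.221% of reads) and were left out, and 8 symbols stood on more than 1 line.

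Log2(normalized reads + 1) of the 14390 genes that reached 10 normalized reads in 4 or more libraries was fitted with limma 3.58.1 in R 4.3.3 (trended prior variance, two-sided, p adjusted over all genes by Benjamini-Hochberg, threshold 0.05), with group as the only term. The labels give no batch. Errors of log2 fold changes are moderated SEs. The fit was tested on simulated data. Promoter sequences are from RefSeq (GRCm38.p6) and gene positions and exon lengths from GENCODE M21.

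The 10 genes and the lists were chosen with earlier results of these data known. The text names all 10 genes, up to 4 called genes of each list by smallest p and the largest 2 changes among those not called, a choice of which is given, and the 5 genes nearest to Trib3. Trib1 and Trib2 were named outside this rule. Alternatives were pseudocounts of 0.5 and 5, no filter, a mean of at least 50, the log2 values as deposited, TMM, upper quartile and quantile scaling, robust moderation, library weights, voom on recovered reads, and leaving out each library.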

Additional observations from a re-analysis of the deposited data

Results flagged for a closer look

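Of 104 groups of 4 libraries checked for 52 genes, 9 held a library whose distance to the nearest other library, divided by the range of the group, was over Dixon's critical value at the 95% level. Chance gives about 1 in 20 groups. Sesn2 was at 245 normalized reads in WT replicate 4, below 268 to 269.8 in the other WT libraries, so the gap between the groups is set by the other 3. Of genes outside the 10, the single high libraries were Acacb in F2_outcross replicate 2 (5508, others 3048 to 3383) and in WT replicate 2 (1739, others 1267 to 1301), Cry1 in F2_outcross replicate 2 (708, others 534 to 553) and Vnn1 in WT replicate 3 (749.7, others 413 to 443). The single low libraries were Egr1 in F2_outcross replicate 3 (70.2, others 1320.4 to 1441), Nqo1 in F2_outcross replicate 2 (128, others 211 to 227), Manf in WT replicate 2 (5036, others 5898 to 5953) and Txnrd1 in WT replicate 2 (3729.6, others 3922 to 3940.4).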

How the results depend on the processing

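Over 19 alternatives, the log2 fold change of each of the 10 genes kept its sign and moved by less than the spread between replicates wherever it could be fitted. Nupr1, Asns, Psat1 and Chac1 could not be fitted with a mean of at least 50. The value of Trib3 ran from -1.48 to -1.02. That of Ddit3 was 0.06 without F2_outcross replicate 4 (0.18 with all libraries), that of Atf3 0.14 without WT replicate 2 (0.36) and that of Nupr1 -0.56 without WT replicate 1 (-0.87). Library weights, which count WT replicate 2 least, gave 1709 changed genes (809 higher, 900 lower), 2 of the 10 called lower (Trib3 and Psat1), 4 wider targets lower and 19 calls in the other 9 lists, against 383, 1, 1 and 10. No filter on low values gave 1 wider target higher, against 3, and quantile normalization gave 2 wider targets lower, against 1. The fits without 1 library gave 111 to 1073 changed genes, 0 to 1 of the 10 called lower, 1 to 3 wider targets higher, 0 to 3 lower and 3 to 16 calls in the other 9 lists. The causes were not tested. No paired analysis was possible because the labels carry no replicate numbers shared between the groups. Genes such as Asns, at 5 to 22 reads, are limited by depth.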

Other observations

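Among 15 PPARA and fasting targets, genes of fatty acid use, 0 passed in limma or limma voom and 1 higher had an unadjusted p under 0.05, with a median log2 fold change of 0.12. Cyp4a14, a fatty acid hydroxylase, varied widely within each group, at 389, 1279, 13.9 and 3716 normalized reads in F2_outcross replicates 1 to 4 and 706, 3955, 2689 and 963 in WT replicates 1 to 4. Vnn1, a pantetheinase, was at 247, 288, 39.9 and 812 in F2_outcross and at 443, 429, 749.7 and 413 in WT. F2_outcross replicate 3, the lowest library for Trib3, was also the lowest for both genes.

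Of 18 tested immediate early genes, which respond quickly to stimuli, 1 rose and 17 did not pass, with a median of -0.21. Of all tested genes, 1.6% rose. Gadd45a, a stress gene that ATF4 can also induce, averaged 398 ± 118 normalized reads in F2_outcross and 196 ± 46.7 in WT (SD, n = 4 each; log2 fold change 1.01 ± 0.22, limma adjusted p = 0.0357), with 285, 413, 337 and 557 in F2_outcross and 236, 129, 218 and 199 in WT. Its groups did not overlap, and its call was lost in 5 of the 8 fits without 1 library. Fos was at 51.8, 52.7, 48.6 and 62.4 in F2_outcross and at 66.2, 40.4, 237 and 78.0 in WT.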
